A study of Mus musculus with 8 samples.

Results

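The 8 genes described here are Srebf2, which encodes the transcription factor SREBP2, and 7 enzymes of sterol synthesis that are among its targets: Hmgcs1, Idi1, Fdps, Sqle, Lss, Cyp51 and Dhcr7. They were found by gene symbol, and all 8 were present once each among the 26824 genes of the count table. The label under which they were grouped also names cholesterol uptake, but none of the 8 is an uptake gene; uptake genes are described in a separate list. RNA was sequenced from the retinas of mice aged 1 month, with 3 libraries from wild-type animals (WT 1 to WT 3) and 5 from animals with the genotype label Kv8.2 KO (KO 2 to KO 6). Kv8.2 is a silent potassium channel subunit of photoreceptors, encoded by Kcnv2. Each library pooled 2 retinas taken, per the labels, from individual mice; the mice were untreated, and strain, sex and the kind of mutation are not given in the sources used here. The comparison asks how retinal transcripts differ between the genotypes. The study's own test left out 2 of the KO samples after an exploratory look, without naming them, and all 5 were used here.

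Cholesterol is made from acetyl-CoA through mevalonate, isoprenoid pyrophosphates, squalene and lanosterol. When sterols in the endoplasmic reticulum membrane are low, the escort protein SCAP carries SREBP2 to the Golgi, where site-1 and site-2 proteases release its transcription factor domain; the factor raises transcription of nearly every enzyme of the pathway and of its own gene. INSIG proteins hold SCAP back when sterols are plentiful. The retina makes part of its own cholesterol and takes up the rest from lipoproteins, Müller glia are a known site of synthesis, and photoreceptor outer segments use it in their membranes.

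Promoter sequences from RefSeq (build GRCm38.p6) were held for 6 of the 8 genes, all but Fdps and Sqle. The 250 bases before the start site are shown for the gene with the largest difference between the genotypes (Srebf2), for the gene whose window holds the sterol regulatory element letters (Hmgcs1) and for the gene with the lowest fold change (Idi1). They lie at chr15:82147019-82147268, chr13:119690101-119690350 and chr13:8885356-8885605, all on the + strand, and are read 5′ to 3′. The start sites are those of RefSeq. In the GENCODE annotation Srebf2 begins at 82147181 and Idi1 at 8885501, so the end of each of these windows lies inside the gene. Capitals mark TCACNCCAC, a form of the sterol regulatory element, and CCAAT, the box bound by NF-Y, on either strand, so that a CCAAT on the other strand reads as ATTGG.
Srebf2: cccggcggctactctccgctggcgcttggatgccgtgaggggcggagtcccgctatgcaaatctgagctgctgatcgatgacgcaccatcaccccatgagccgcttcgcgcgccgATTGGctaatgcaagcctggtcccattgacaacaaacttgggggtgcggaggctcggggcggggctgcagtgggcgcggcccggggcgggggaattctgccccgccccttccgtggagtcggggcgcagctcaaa
Hmgcs1: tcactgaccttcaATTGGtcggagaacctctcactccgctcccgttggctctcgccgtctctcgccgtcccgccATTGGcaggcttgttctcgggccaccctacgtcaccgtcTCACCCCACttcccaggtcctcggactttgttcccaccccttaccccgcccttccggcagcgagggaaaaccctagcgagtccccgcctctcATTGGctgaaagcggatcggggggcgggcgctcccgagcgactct
Idi1: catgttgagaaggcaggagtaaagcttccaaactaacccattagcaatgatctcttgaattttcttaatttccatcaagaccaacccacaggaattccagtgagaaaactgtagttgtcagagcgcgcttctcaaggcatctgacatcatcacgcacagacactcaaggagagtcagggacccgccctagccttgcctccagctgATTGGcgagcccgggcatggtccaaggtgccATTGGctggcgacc
Over windows that also held the 50 bases after the start, TCACNCCAC was found in 1 of the 6 genes, Hmgcs1, where it begins at -137 as TCACCCCAC, and in 1.44% of all 27025 genes with a promoter. CCAAT was found in all 6 genes, against 41.1% of all genes. CACGTG, the E-box, was found in Dhcr7, at 1 of its 3 start sites, against 8.09% of all genes. The matches of different motifs did not overlap. A match of letters is not a binding site, and the absence of one says only that these letters were not in the window.

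Library depth was 17759146 to 25188870 counts. Kcnv2 itself (ENSMUSG00000047298) was present in every library, at 519 to 551 CPM (counts scaled by library size and a TMM factor) in WT. Of the KO libraries, KO 3 to KO 6 held less of it (447, 398, 409 and 409 CPM) than any WT library. KO 2, at 585 CPM, was the highest of all 8 on this scale. That rank depends on the scaling: the TMM factor was 0.9154 in KO 2 and 0.9916 to 1.029 in WT. By library size alone KO 2 was not the highest. The log2 fold change of Kcnv2 was -0.24 (SE 0.14, adjusted p = 0.275). Since the kind of mutation is not given, the level of Kcnv2 RNA cannot check the labels, and the libraries are called by them. The libraries labelled KO were not alike. KO 4, KO 5 and KO 6 had 3.03% to 3.70% of counts from mitochondrial genes, against 5.23% and 6.52% in KO 3 and KO 2 and 7.09% to 7.92% in WT. Transcripts of the lens, a tissue next to the retina, took 0.623% of the counts of KO 3 and at most 0.0418% elsewhere. Results are therefore also given for KO 2 and KO 3 against WT and for KO 4 to KO 6 against WT. Both comparisons use the same 3 WT libraries. KO 2 and KO 3 were unlike each other as well. The chi-square of their counts per degree of freedom was 96, against 5.38 to 6.28 for pairs among KO 4 to KO 6. No WT library had a mitochondrial share like that of KO 4 to KO 6, so in that comparison what sets these libraries apart and the genotype cannot be told apart. Rod transcripts marked all libraries as retina, with a summed 34400 to 51200 CPM over 6 rod genes.

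Among the 8 genes, Srebf2 alone was called higher in the libraries labelled KO, at 1.47-fold, and none was called lower. That is 1 of 8 genes called higher at an adjusted p under 0.05 in edgeR's quasi-likelihood test, where 4.74% of the 20167 tested genes were called higher, 2.84% lower and 7.58% in either direction. That balance depends on the scaling: 956 genes were called higher and 573 lower here, against 566 and 787 with library size alone. All 8 passed the filter on low counts, with at least 437 counts in every library. The median log2 fold change of the 8 was 0.13, against 0.00073 over all tested genes. The summed level of the 7 enzymes was 469 ± 20.2 CPM over the WT libraries (SD, n = 3) and 487 ± 43.4 CPM over the KO libraries (SD, n = 5), with overlapping ranges. In 3 of the 8 genes the groups did not overlap (Srebf2 and Dhcr7 higher, Idi1 lower), where 20.9% of all tested genes showed such a separation.

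**Figure D1:**
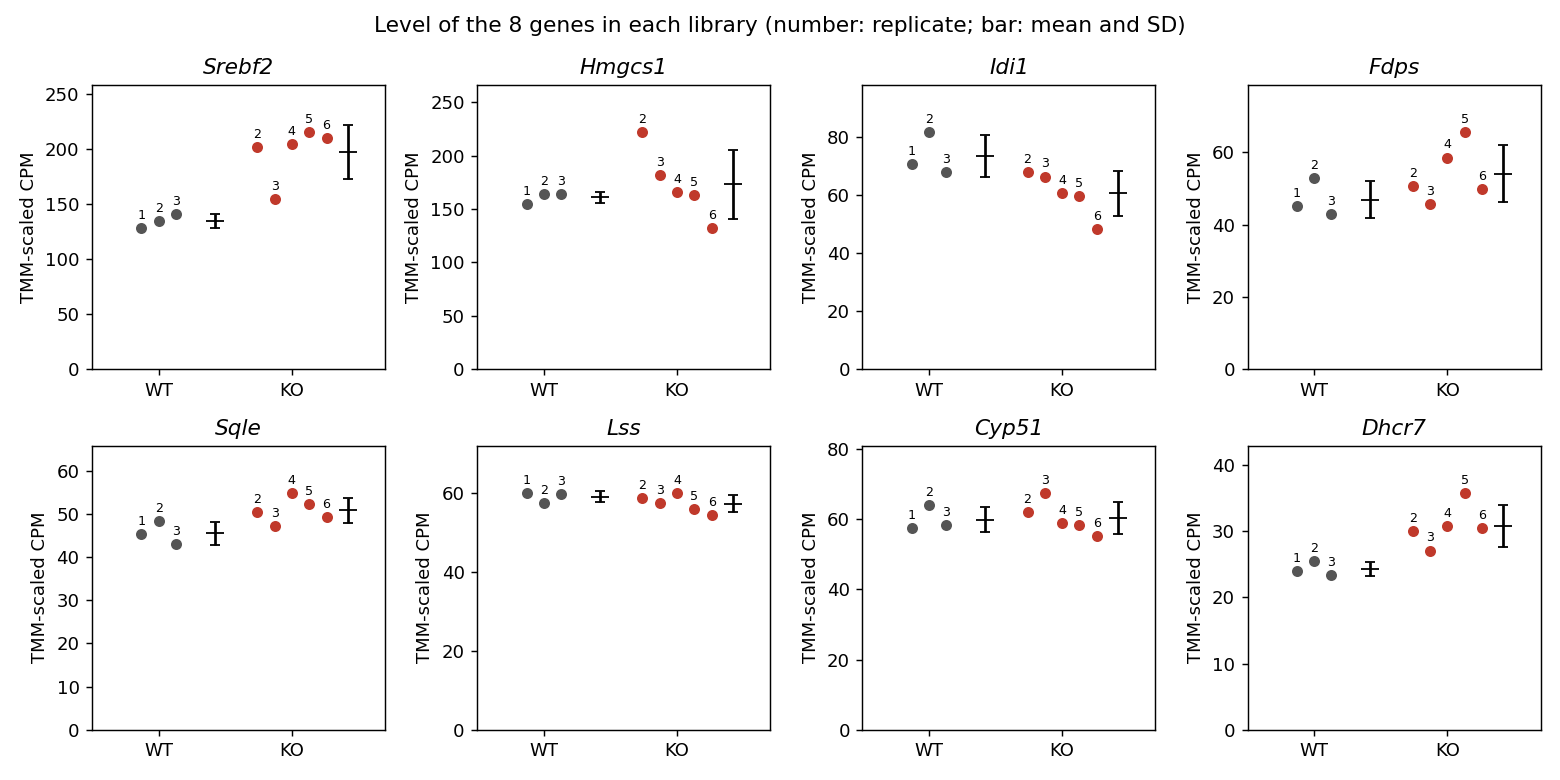
TMM-scaled CPM of the 8 genes in each library (y axis, from 0), with WT in grey and KO in red, the replicate number at each point, and the mean with SD beside each group. Every KO library lies above every WT library for Srebf2 (154 to 215 against 128 to 141 CPM) and Dhcr7, while the points of Lss and Cyp51 overlap between the groups.

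Srebf2 (ENSMUSG00000022463, chr15:82147181-82205379, + strand, GRCm38) is the regulator of the pathway. WT 1, WT 2 and WT 3 held 128, 134 and 141 CPM of it. It was 202, 154, 204, 215 and 210 CPM in KO 2 to KO 6. Every KO library was above every WT library, KO 3 stood only slightly above the highest WT library, and the other 4 KO libraries lay close together. The means were 134 ± 6.35 (SD, n = 3) and 197 ± 24.5 CPM (SD, n = 5), a log2 fold change of 0.55 (SE 0.12, adjusted p = 0.0266). The difference was 0.41 for KO 2 and KO 3 against WT (adjusted p = 0.159), where 0.891% of genes were called, and 0.65 for KO 4 to KO 6 (adjusted p = 4.39e-06), where 42.8% were called. The sign and rough size of the difference held in every fit that left out a library, at 0.52 to 0.64, but the call did not. It was lost without WT 1 (adjusted p = 0.13), WT 2 (0.122), WT 3 (0.0925), KO 4 (0.0663), KO 5 (0.0646) or KO 6 (0.0566), and it held without KO 2 (0.0258) or KO 3 (0.000969). The gene Mir33, for a microRNA, lies inside Srebf2 on the same strand and was not analysed here. Since retinas were sequenced whole, more RNA per cell and more cells that express a gene cannot be told apart, here or below.

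Hmgcs1 (ENSMUSG00000093930, chr13:119690379-119708260, + strand) encodes HMG-CoA synthase, which makes HMG-CoA on the way to mevalonate. It was at 155, 164 and 164 CPM in WT. The KO libraries spread from 132 to 222 CPM, with KO 2 at 222, KO 3 at 182, KO 4 at 166, KO 5 at 163 and KO 6 at 132. The KO libraries thus lay on both sides of the narrow WT range. The log2 fold change was 0.11 (SE 0.14, adjusted p = 0.675), and it was 0.33 in KO 2 and KO 3 and -0.054 in KO 4 to KO 6, neither of them called (adjusted p = 0.188 and 0.622). With a correction for GC content, described further on, the value in KO 4 to KO 6 turned to 0.23 and was called higher (adjusted p = 0.0192).

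Idi1 (ENSMUSG00000058258, chr13:8885501-8892451, + strand) interconverts the isoprenoid building blocks isopentenyl and dimethylallyl pyrophosphate. Its level was 70.9, 81.8 and 68.1 CPM in WT. In KO 2 to KO 6 it was 68.0, 66.5, 60.8, 59.8 and 48.2 CPM. The groups did not overlap, but KO 2 lay only just under WT 3, and KO 6 was the lowest library. The log2 fold change of -0.28 (SE 0.11) was not called (adjusted p = 0.148). It was -0.13 in KO 2 and KO 3 (adjusted p = 0.526) and -0.38 in KO 4 to KO 6 (adjusted p = 0.00693), but 0.021 in KO 4 to KO 6 after GC correction (adjusted p = 0.870), which ended that call. A share of 27.1% of the 31-base words of its transcripts also occurs, on either strand, in other annotated genes. Its counts could be split with these genes, whether near-identical copies or genes at the same place. Among them, Gm48574 overlaps Idi1 on the opposite strand. The share was 27.9% for Fdps, which Gm43738 overlaps on the same strand, and 13.1% for Hmgcs1, which Gm48342 overlaps on the opposite strand. It was at most 3.88% for the other 5 genes.

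Fdps (ENSMUSG00000059743, chr3:89093588-89101959, - strand) makes farnesyl pyrophosphate, from which sterols, ubiquinone, dolichol and protein prenyl groups branch. It was at 45.1, 52.8 and 43.0 CPM in WT. KO 3 (45.8), KO 6 (49.8) and KO 2 (50.7 CPM) lay inside the WT range, and KO 4 (58.6) and KO 5 (65.6 CPM) above it. The log2 fold change was 0.21 (SE 0.12, adjusted p = 0.314). It was 0.041 in KO 2 and KO 3 (adjusted p = 0.879) and 0.32 in KO 4 to KO 6 (adjusted p = 0.0261), the latter falling to 0.15 and out of the calls after GC correction (adjusted p = 0.286).

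Sqle (ENSMUSG00000022351, chr15:59315077-59331192, + strand), squalene epoxidase, catalyses the first oxygen-dependent step of the sterol branch. It ranged from 43.0 to 48.3 CPM in WT and from 47.2 to 54.9 CPM in KO. Of the KO libraries, only KO 3 was below the highest WT library. The log2 fold change was 0.16 (SE 0.080, adjusted p = 0.230), with 0.10 in KO 2 and KO 3 (adjusted p = 0.607) and 0.21 in KO 4 to KO 6 (adjusted p = 0.0338).

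Lss (ENSMUSG00000033105, chr10:76531588-76557138, + strand), which closes the sterol rings to form lanosterol, stayed between 54.4 and 59.9 CPM in all 8 libraries. It was at 59.9, 57.3 and 59.7 CPM in WT and at 58.6, 57.4, 59.8, 55.8 and 54.4 CPM in KO 2 to KO 6. Its log2 fold change was -0.044 (SE 0.069, adjusted p = 0.723). Cyp51 (ENSMUSG00000001467, chr5:4081145-4104746, - strand), the cytochrome P450 that demethylates lanosterol, was at 57.4, 64.0 and 58.4 CPM in WT and at 62.0, 67.5, 58.9, 58.3 and 55.3 CPM in KO 2 to KO 6. Its log2 fold change was 0.011 (SE 0.084, adjusted p = 0.948), and its sign depended on the normalization, being -0.022 with library size alone. The group means were 59.0 ± 1.47 and 57.2 ± 2.14 CPM for Lss and 59.9 ± 3.59 and 60.4 ± 4.63 CPM for Cyp51 (SD, n = 3 and n = 5), and in both genes the groups overlapped. Akap9 overlaps Cyp51 on the opposite strand, at 2765 to 3446 counts a library, and whether the counting used strand is not given in the sources used here.

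Dhcr7 (ENSMUSG00000058454, chr7:143823145-143848410, + strand) carries out the last reduction to cholesterol in the Kandutsch-Russell branch. It was at 24.0, 25.5 and 23.4 CPM in WT. It was at 30.0, 27.1, 30.8, 35.8 and 30.5 CPM in KO 2 to KO 6. As for Srebf2, every KO library exceeded every WT library and KO 3 was the closest to WT. The log2 fold change of 0.34 (SE 0.11) did not pass the adjustment over all genes (adjusted p = 0.0720). It was called without KO 3 (0.39, adjusted p = 0.0194), and no other fit that left out a single library called it. It was 0.23 in KO 2 and KO 3 (adjusted p = 0.281) and 0.42 in KO 4 to KO 6 (adjusted p = 0.00126).

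**Figure D2:**
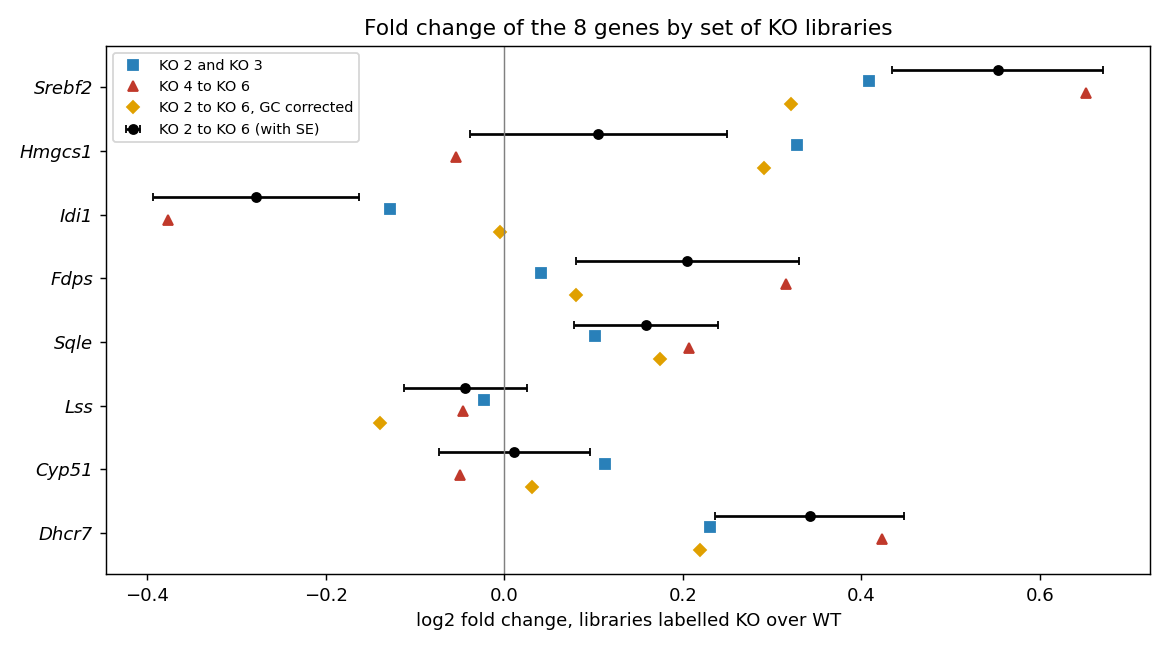
Log2 fold change of the libraries labelled KO over WT (x axis) for the 8 genes: all 5 KO libraries with the standard error (black circles), KO 2 and KO 3 (blue squares), KO 4 to KO 6 (red triangles), and all 5 after correction for GC content (yellow diamonds). Srebf2, Dhcr7, Sqle and Fdps are above 0 in all 4 estimates, while Hmgcs1 and Cyp51 lie on opposite sides of 0 in the 2 sets of KO libraries.

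In KO 2 and KO 3 against WT none was called, and the highest log2 fold changes were those of Srebf2 (0.41) and Hmgcs1 (0.33). In KO 4 to KO 6 against WT 5 were called, with Srebf2, Dhcr7, Fdps and Sqle higher and Idi1 lower, next to a background of 42.8% of all genes. With GC correction of the same libraries 5 were again called, but not the same ones, next to 33.6% of all genes. Srebf2 (0.31, adjusted p = 0.000734), Sqle (0.23, adjusted p = 0.0162) and Dhcr7 (0.25, adjusted p = 0.0213) stayed higher, the calls of Idi1 and Fdps were lost, and Hmgcs1 was called higher and Lss lower (-0.18, adjusted p = 0.0438). Whether the sets differ from each other was not tested.

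The base composition of the transcripts moved with these values. Median GC content was 40.8% for Idi1, 43.3% for Hmgcs1, 48.5% for Cyp51, 48.7% for Sqle, 52.1% for Lss, 52.9% for Fdps and Dhcr7, and 58.0% for Srebf2. Over the tested genes with an annotated GC content (18028) the median log2 fold change was -0.21 at a GC content of 40% to 45% and 0.21 at 55% to 60%. Across the 8 genes, which share the same libraries, the rank correlation (Spearman's rho) of GC content with the log2 fold change was 0.83, given as a description. It was 0.97 with KO 4, KO 5 and KO 6 as the KO group and 0.40 with KO 2 and KO 3. The part of base composition in the difference of Srebf2 was not tested. The rank correlation of GC content with a library's deviations from the mean of all libraries was -0.388 to -0.363 in WT. It was -0.0614 in KO 2, -0.336 in KO 3 and 0.305 to 0.504 in KO 4 to KO 6. The correction that follows therefore cannot tell base composition and genotype apart. After each library was corrected for GC content, Srebf2 was still called (log2 fold change 0.32, adjusted p = 0.0452), next to 7.15% of genes called in that fit. Its difference was smaller than without the correction by over 1.5 times. Idi1 went from -0.28 to -0.0053, and Hmgcs1 from 0.11 to 0.29 (adjusted p = 0.977 and 0.0928). Dhcr7 was at 0.22 (adjusted p = 0.122).

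**Figure D3:**
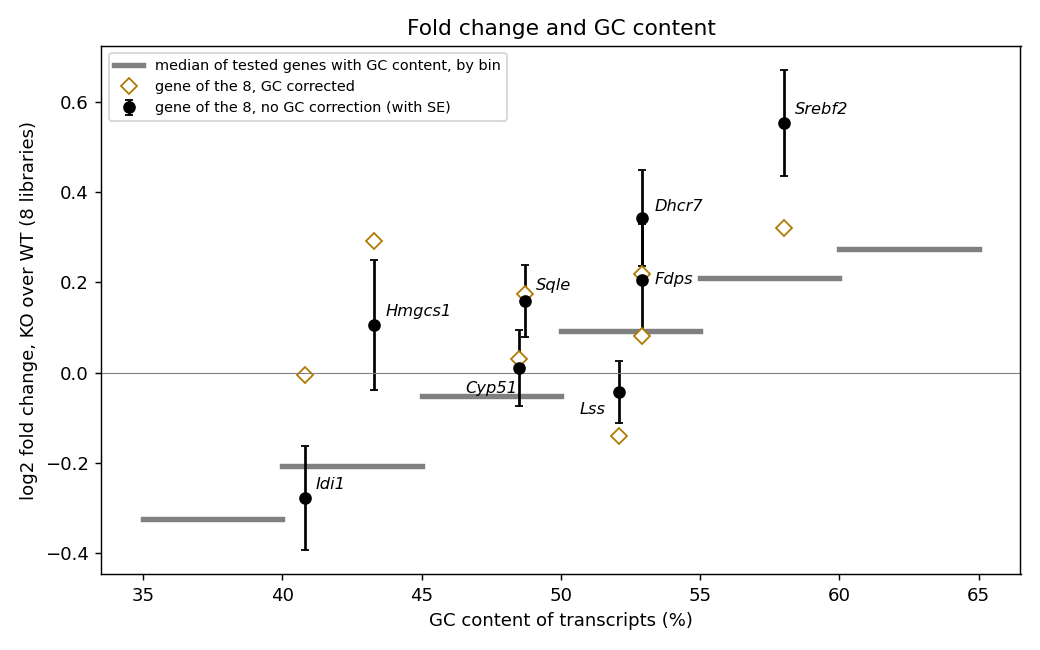
Log2 fold change of the libraries labelled KO over WT in all 8 libraries (y axis) against the median GC content of a gene's transcripts (x axis, percent), without correction (black circles with SE) and after GC correction (open diamonds), with the median of the 17864 tested genes that have a GC content in the bins shown as grey bars. The grey bars climb from -0.33 at 35% to 40% to 0.27 at 60% to 65%, and the uncorrected value of Srebf2 lies above the bar of its bin.

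Levels of different genes were compared per kilobase of the longest coding transcript (CPM per kb). In WT, Hmgcs1 was highest at 46.5 ± 1.5, followed by Fdps (34.0 ± 3.73), Srebf2 (26.5 ± 1.25), Idi1 (24.3 ± 2.39), Sqle (16.5 ± 0.962), Cyp51 (15.2 ± 0.914), Lss (12.6 ± 0.314) and Dhcr7 (8.64 ± 0.386 CPM per kb; SD, n = 3 for each). The values of Srebf2 and Idi1 overlapped between libraries, as did those of Sqle and Cyp51. The other neighbours in the order were separate in WT. In KO the order of the means was the same, but Srebf2 (38.8 ± 4.83) stood next to Fdps (39.2 ± 5.74) (SD, n = 5 for each), and its lowest KO library (30.4) was above the highest of Idi1 (22.5 CPM per kb).

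The other 57 genes of 6 lists of sterol and lipid metabolism were tested in the same fit. Of these, 12 were called higher, which is 21.1%, and 0 lower, where 4.74% of all tested genes were called higher. In what follows, a gene that rose or fell is one that was called. These counts hold for the reported fit: with library size alone 6 were called higher and 0 lower, next to 2.81% and 3.9% of all tested genes. With limma voom 30 were called higher and 12 lower, next to 20.3% and 20.6%. In KO 4 to KO 6 against WT 27 were called higher and 11 lower, next to 22.3% and 20.5%. The lists were drawn up from knowledge of the pathway, with earlier results of these data known. Of the 13 other enzymes of sterol synthesis, 1 rose. The lowest value in the list was that of the sterol reductase gene Tm7sf2 (-0.44, adjusted p = 0.174). The median of the list was 0.24.

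The list of SREBP processing held 6 genes, of which 2 rose, Srebf1 and Scap, and 0 fell. Srebf1, which is itself an SREBP gene and not one that controls processing, encodes the related factor that mainly drives fatty acid synthesis. It was at 58.8 to 62.8 CPM in WT, 92.1 and 83.3 CPM in KO 2 and KO 3, and 132 to 153 CPM in KO 4 to KO 6. All KO libraries were above WT, and the log2 fold change was 1.02 (SE 0.20, adjusted p = 0.0207). It was the only one of the 12 genes that was also called in KO 2 and KO 3 against WT (0.54, adjusted p = 0.0372). Scap, for the escort protein, rose by 0.68 (SE 0.16, adjusted p = 0.0351). Insig2 had the lowest value of the list, -0.21 (adjusted p = 0.113).

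Of the 11 genes of cholesterol uptake and trafficking, 2 rose. Lrp1, a receptor for apolipoprotein-bearing particles, was among them and rose by 0.71 (SE 0.18, adjusted p = 0.0403). Lipa, the lysosomal acid lipase that frees cholesterol from its esters, had the lowest value, -0.16 (adjusted p = 0.515).

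Of the 10 genes of efflux and turnover, 2 rose, both of them transporters that carry sterol out of cells. Abcg1 was at 88.0 to 93.7 CPM in WT, 102 CPM in KO 3 and 172 to 190 CPM in the other KO libraries (log2 fold change 0.86, SE 0.18, adjusted p = 0.0247). Abca1 rose by 0.37 (SE 0.098, adjusted p = 0.0470). Ch25h, an oxysterol-forming hydroxylase, was the lowest at -0.99 (adjusted p = 0.362), with 1 count in its lowest library. In the isoprenoid branch, which leads to prenylation, ubiquinone and dolichol, 0 of 8 genes were called, and values ran from -0.43 (Pdss1, adjusted p = 0.120) to 0.29 (Dhdds, adjusted p = 0.0597).

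The fatty acid list held the most calls, 5 of 9 genes, all higher, with a median log2 fold change of 0.50. Fasn, fatty acid synthase, was at 106 to 119 CPM in WT, 159 and 150 CPM in KO 2 and KO 3, and 242 to 246 CPM in KO 4 to KO 6 (log2 fold change 0.88, SE 0.18, adjusted p = 0.0254). The desaturase genes Fads2 (0.60, adjusted p = 0.0189), Scd1 (0.62, adjusted p = 0.0443) and Scd2 (0.59, adjusted p = 0.0269) and the carboxylase gene Acaca (0.50, adjusted p = 0.0287) rose as well. Elovl6 was the lowest, at -0.10 (adjusted p = 0.684).

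**Figure D4:**
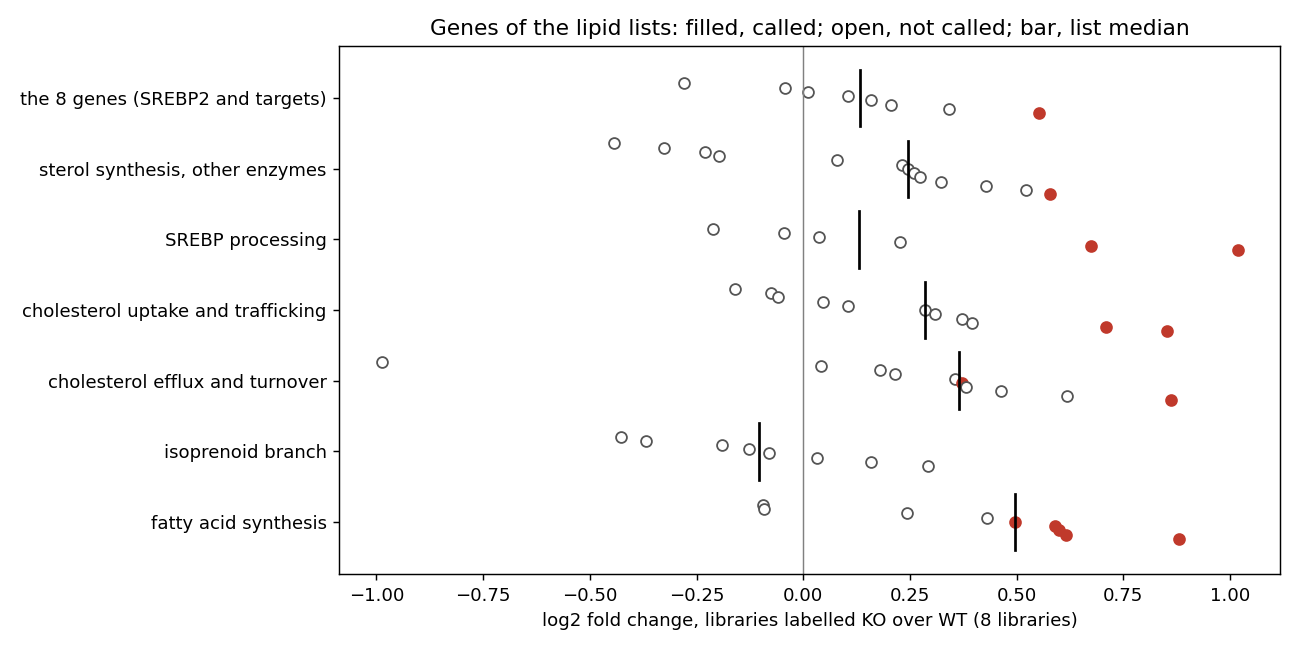
Log2 fold change of the libraries labelled KO over WT in all 8 libraries (x axis) for each tested gene of the 7 lists, filled where the gene was called and open where it was not, with the list median as a bar. Filled points lie to the right of 0 in every list that has one, and the fatty acid list has 5 of them.

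The calls outside the 8 genes shared the limits of that of Srebf2. None of the 12 was called without WT 1, WT 2 or WT 3, where their adjusted p-values were 0.0773 to 0.178; 2 were called without KO 4 or without KO 5, 4 without KO 6, and all 12 without KO 2 or without KO 3. After GC correction 8 of the 12 were called, and those that were not included Lrp1 (adjusted p = 0.0554) and Scd1 (0.117); Insig1 (0.34, adjusted p = 0.0127), Npc1 (0.49, adjusted p = 0.0410) and Soat1 (0.46, adjusted p = 0.0383) were called higher and Tm7sf2 lower (-0.65, adjusted p = 0.0359) after the correction and not before it.

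Markers of some cell types differed between the groups, and those of others overlapped. Of all tested genes, 4.74% were called higher and 2.84% lower, and 20.9% did not overlap between groups. The last share is for single genes and not for sums. Of 7 Müller glia genes, 2 were called higher (Kcnj10 and Vim), and their summed level was 4000 to 4210 CPM in WT and 4120 to 6160 CPM in KO, with KO 2 highest. The 4 endothelial genes summed to 136 to 143 CPM in WT and 186 to 282 CPM in KO, and the 5 microglial genes to 22.2 to 25.1 and 27.2 to 39.8 CPM, so that neither list overlapped between groups; 1 and 2 of their genes were called higher. The 5 cone genes summed to 780 to 984 CPM in WT and 518 to 692 CPM in KO, with 2 called lower. The summed levels of Müller glia, rods, bipolar cells, amacrine with ganglion cells, and pigment epithelium overlapped between groups, and 1 of the 6 rod genes was called higher. The part of these cell types in the values of Srebf2 and the lipid genes was not tested. Oligodendrocyte genes, a mark of optic nerve, summed to 39.3 to 45.0 CPM in WT and 37.2 to 45.1 CPM in KO; 2 of the 4 passed the filter and 1 was called lower. Of the 8 lens genes, 5 were at 0 in at least 1 library, and the list summed to 6390 CPM in KO 3, the library with the lowest Srebf2 of the KO group.

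The 8 genes did not all follow each other over the 8 libraries. Of their 28 pairs, 16 had a positive and 12 a negative Pearson correlation of log2 CPM, with a median of 0.057, a lowest value of -0.74 (Srebf2 with Idi1) and a highest of 0.92 (Srebf2 with Dhcr7), as a description over libraries that all pairs share. Their mean therefore does not stand for each of them. The genes outside the lists whose levels followed the mean standardised log2 CPM of the 8 genes most closely over the 8 libraries were Extl2 (Pearson's r 0.93), Mbnl2 (0.90), Cct8 (0.90), Kdm1b (0.89) and Kdelr2 (0.88), out of 11261 candidates. These are the highest of many values over few libraries and are given as a description. None of the 5 was called between the groups, with adjusted p-values of 0.371 to 0.483.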

How the data were processed

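RNA from 8 retinal samples was sequenced. The authors deposited whole-number read counts per gene, unscaled; per the submitters' processing notes the tools included Trim Galore, Salmon 1.10.2 and DESeq2, with the build GRCm38. Salmon's estimates are not whole, so the counts may be rounded estimates. Annotation release and strand setting are not given in the sources used here. Every gene of the deposited table had at least 16 counts in total.

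The 8 genes and all lists were chosen with earlier results of these data known. Counts were compared with edgeR 4.0.16 (R 4.3.3): TMM scaling, filterByExpr, glmQLFit and glmQLFTest on all 8 libraries, with Benjamini-Hochberg adjustment over 20167 genes and calls under 0.05. SE is the absolute log2 fold change divided by the root of F. CPM are TMM-scaled; log2 CPM used a prior count of 2. Named were the 8 genes, Kcnv2, each called gene and both extremes of each list (some are not reported here), and the 5 most alike genes (mean log2 CPM of at least 3); the genes that the GC correction added were chosen after their values were seen. GENCODE M21 (GRCm38) gave positions, length and GC content for 22121 of 26824 genes. GC correction used lowess offsets per library (span 0.3). DESeq2 1.42.0 and limma 3.58.1 served as alternatives, and the fits were tested on simulated counts. At the lowest depth, 3 counts are 0.169 CPM by library size alone. The chi-square per degree of freedom was at least 5.38 in each pair of libraries of a group, so each was counted once. Leaving out libraries, other scalings and other filters were also tried.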

Additional observations from a re-analysis of the deposited data

Results flagged for a closer look

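Srebf2 in KO 3 stood apart from the other libraries labelled KO. On the log2 scale its gap to the next library was 0.82 of the range of the 5, above the limit of 0.71 for 5 samples. This was looked for in 8 genes, where chance gives about 0.4 such gaps. KO 3 was at 154 CPM, next to 202 to 215 CPM in the other 4. KO 3 also held the most lens transcripts, and their part in this gap was not tested. Without KO 3 the log2 fold change of Srebf2 was 0.64, against 0.55 with it.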

How the results depend on the processing

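Srebf2 kept its direction under every alternative run and its call under other scalings, filters and tools, at log2 fold changes of 0.52 to 0.63. Counts of calls are given as the 8 genes, the 13 other sterol enzymes and all genes; they were 1, 1 and 1529 in the reported fit. They were 2, 3 and 3066 with DESeq2 and 5, 10 and 8248 with limma voom with quality weights. Library size alone and no filter on low counts each called 0 of the other enzymes. KO 2 and KO 3 against WT gave 0, 0 and 180 (0, 0 and 127 with GC correction), and KO 4 to KO 6 against WT gave 5, 7 and 8416 (5, 6 and 5942 with GC correction, where Hmgcs1 and Lss replaced Idi1 and Fdps among the 5). Over fits that left out 1 library or a pair of KO libraries, counts were 0 to 5, 0 to 7 and 118 to 8416. Leaving out KO 3 gave 3992 genes, KO 2 2781, KO 4 365, KO 5 388, KO 6 531, and WT 1, WT 2 and WT 3 132, 135 and 199. The cause of these shifts was not tested.

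The labels share only the replicate numbers 2 and 3 between genotypes, and the deviations of same-numbered libraries correlated at -0.19, so the numbers were not taken as pairs. With the number as a replicate block, those 4 libraries gave 0, 0 and 52 calls, and without the block 0, 0 and 14. A crossed block, added after seeing the data like the GC corrections of each set of KO libraries, gave 0, 0 and 527.

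The 4 genes whose direction reversed were not called in the fit of all 8 libraries. Hmgcs1 was at -0.00072 with limma voom and -0.054 in KO 4 to KO 6, with -0.054 to 0.24 over the fits that left out libraries. Cyp51 was at -0.022 with library size alone, -0.021 with voom, -0.050 in KO 4 to KO 6 and -0.017 there with GC correction, with -0.050 to 0.069 over the fits that left out libraries. After GC correction Idi1, called lower in KO 4 to KO 6 without it, was at 0.021 there and Fdps at -0.014 in KO 2 and KO 3. Dhcr7 had the fewest counts of the 8 genes, from 437 a library; how much of the spread between libraries is counting error was not tested.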
